A study of Homo sapiens with 2 samples.

Results

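The CXC chemokine genes of chromosome band 4q13.3 were examined in 2 lists of genomic regions at which HMGB2 was called in senescent against growing cells. The window was fixed by position, as chr4:74500000-75000000 in the human genome build hg19, and was proposed with results of these data known. It held 8 named chemokine genes: CXCL8, CXCL6, CXCL1, PF4, PPBP, CXCL5, CXCL3 and CXCL2. It held 10 of the 3156 deposited regions, 5 of 364 broad and 5 of 2792 narrow. HMGB2 had been mapped by chromatin immunoprecipitation and sequencing, with a rabbit anti-HMGB2 antibody, in IMR90 cells, a line of human fibroblasts from lung. One library came from cells infected with RAS and senescent, and one from growing cells that served as the control. Both were taken at day 2, from cultures in 2% oxygen, and were prepared from 10 ng of precipitated DNA. The labels do not say which RAS gene or vector was used, what the growing cells received, or from when the day was counted.

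With 1 library per condition there is no replicate and no test between conditions. The lists give positions only, without height or reads behind a region, so depth is unknown and no region has a measured size of difference. The list names put senescent before growing, and the regions are taken as higher in senescent cells on that ground alone. A place with no region is one where no call was made in this comparison, which can be a place bound alike in both conditions.

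CXC chemokines are small secreted proteins that steer white blood cells. CXCL8, CXCL6, CXCL5, CXCL1, CXCL2, CXCL3 and the product of PPBP share a glutamate-leucine-arginine motif and attract neutrophils through the receptors CXCR1 and CXCR2, whereas PF4, the platelet factor, lacks that motif. The genes arose by tandem duplication and still lie side by side. In senescent fibroblasts several of them belong to the senescence-associated secretory phenotype (SASP), the set of cytokines, chemokines and proteases that such cells release. HMGB2, of the high mobility group box family, bends DNA that it contacts in the minor groove, with little preference for sequence.

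The promoters are shown first because 6 of the 7 with a sequence share a short core before the start, while none of the called regions, described next, covered a start among the genes placed in hg19. The RefSeq promoter table (build GRCh38.p14) held 7 of the 8 genes. Each sequence is the 120 bases before the annotated start, written 5′ to 3′ in the direction of transcription, with a shared core of 9 bases in capitals. These positions belong to GRCh38.p14 and are not comparable with the hg19 positions of the regions.
CXCL8 (chr4:73740449-73740568, plus strand): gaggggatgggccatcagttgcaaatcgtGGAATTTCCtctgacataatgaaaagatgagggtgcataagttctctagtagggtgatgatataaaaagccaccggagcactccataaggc
CXCL6 (chr4:73836558-73836677, plus strand): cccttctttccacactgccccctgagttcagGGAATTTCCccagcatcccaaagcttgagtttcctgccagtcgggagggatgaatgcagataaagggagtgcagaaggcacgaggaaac
CXCL1 (chr4:73869273-73869392, plus strand): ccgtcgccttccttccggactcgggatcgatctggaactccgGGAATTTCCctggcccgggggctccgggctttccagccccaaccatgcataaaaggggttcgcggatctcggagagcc
PPBP (chr4:73988191-73988310, minus strand): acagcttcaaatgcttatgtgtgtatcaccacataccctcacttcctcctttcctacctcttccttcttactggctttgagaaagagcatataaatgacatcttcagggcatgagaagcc
CXCL5 (chr4:73998678-73998797, minus strand): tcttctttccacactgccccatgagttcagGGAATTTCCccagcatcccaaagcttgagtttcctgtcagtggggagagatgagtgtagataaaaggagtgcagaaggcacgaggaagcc
CXCL3 (chr4:74038690-74038809, minus strand): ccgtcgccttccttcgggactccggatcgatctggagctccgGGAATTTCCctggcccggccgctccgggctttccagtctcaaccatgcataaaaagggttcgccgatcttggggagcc
CXCL2 (chr4:74099196-74099315, minus strand): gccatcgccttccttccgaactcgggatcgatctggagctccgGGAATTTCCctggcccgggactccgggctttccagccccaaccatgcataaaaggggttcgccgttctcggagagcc

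The core GGAATTTCC, chosen after the sequences were seen, lay in 6 of the 7 promoter windows of 250 bases before to 50 after the start. PPBP was the one without it. Among all 35116 promoter windows of the table, 0.461% held this core on either strand. Its first base lay 91 bases before the start in CXCL8, 89 in CXCL6 and 90 in CXCL5, and 78 in CXCL1 and CXCL3 and 77 in CXCL2. The 10 bases on each side of the core sorted the genes in the same way, except for CXCL8. CXCL6 and CXCL5 were identical at 19 of these 20 bases, and CXCL1, CXCL2 and CXCL3 at 18 or 19 of 20 in each pair. CXCL8 matched the 5 others at 5 to 8 of 20, and least (5 of 20) CXCL6 and CXCL5, whose cores lay at nearly its distance.

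The looser NF-kB motif (GGG, any 5 bases, then CC), searched on both strands, also lay in 6 of 7 windows, all but that of PPBP, but 58.7% of all promoter windows held it. In CXCL8 this match (GGGATGGGCC) did not overlap the core, and in the other 5 genes a match overlapped it. To match at the core, this motif needs a further G before it or C after it, and in CXCL8 both neighbours are T. NF-kB is the transcription factor that drives inflammatory genes. An AP-1 motif (TGANTCA, either strand, in 7.71% of all windows) lay in CXCL8 alone, 137 bases before the start. A C/EBP motif (TTNNGNAA, either strand, in 36.8% of all windows) lay in CXCL2 and, with 4 matches, in PPBP. A match describes letters only and no binding was measured at it.

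**Figure D1:**
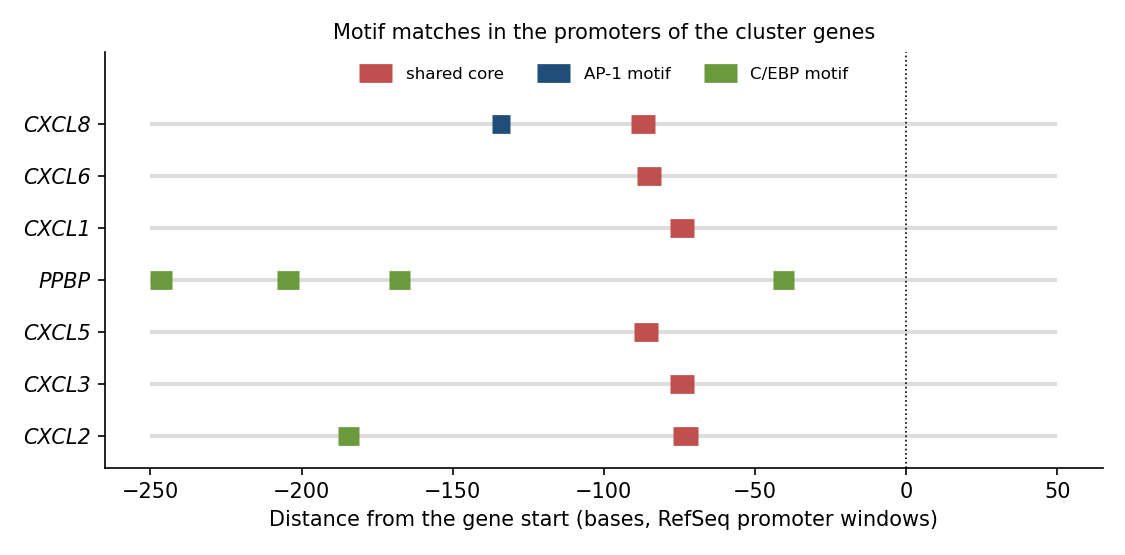
Motif matches in the promoters of 7 cluster genes: the x axis is the distance from the gene start in bases, each grey line is a promoter window, and coloured blocks are matches on either strand. The shared core sits 77 to 91 bases before the start in 6 genes and is missing from PPBP.

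Starts and ends in hg19 were at hand for 4 of the 8 genes, and each of these had a broad region within 5 kb. These 4 spans came with the definition of the window, which was proposed with results of these data known. Counts over these 4 genes are thus no test and cannot stand for the 8. CXCL8 spans chr4:74606223-74609433 and CXCL1 chr4:74735109-74737019, both on the plus strand. CXCL5 spans chr4:74861359-74864416 and CXCL2 chr4:74962753-74964997, both on the minus strand, so that their starts are at the higher position. In all 4 the region lay toward the 3′ end or beyond it, and in none did a region of either list cover the start or lie in the 5 kb upstream of it. The 5 kb downstream of the 3′ end held a broad region in 4 of 4 genes and a narrow region in 3 of 4. Whether genes elsewhere show the same placement was not examined, since positions of other genes in hg19 were not used here.

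CXCL8, which encodes interleukin 8, the main neutrophil attractant of the family, had the widest region of the window. The broad region chr4:74606793-74610581 was 3788 bp wide. It began 570 bp after the start of the gene, covered 82.2% of the gene body and ran on to 1148 bp beyond the 3′ end. It held 2 narrow regions, each 264 bp wide as are all of that list. The first, chr4:74608555-74608819, lay inside the gene, and its far edge was 614 bp short of the 3′ end. The second, chr4:74609552-74609816, began 119 bp beyond the 3′ end. The midpoint of the first narrow region coincided with the midpoint of the broad region, and that of the second lay 997 bp farther along.

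CXCL1 encodes GRO-alpha, another CXCR2 ligand, and its region lay wholly outside the gene. The broad region chr4:74737098-74738560 was 1462 bp wide, began 79 bp past the 3′ end and ended 1541 bp past it. From the start of the gene to the near edge of the region was 1989 bp. Its 1 narrow region, chr4:74737554-74737818, began 535 bp past the 3′ end.

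CXCL5, which encodes a neutrophil attractant first described in epithelial cells, lies on the other strand and had the mirror arrangement. The broad region chr4:74859632-74861116 was 1484 bp wide, and the gene's 3′ end lay 243 bp from it, at the higher position. Read in the direction of transcription, the region ran from 243 to 1727 bp past the 3′ end, and its near edge was 3300 bp from the start. Its 1 narrow region, chr4:74860188-74860452, began 907 bp past the 3′ end.

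CXCL2, which encodes GRO-beta, had the narrowest region among the 4 genes. The broad region chr4:74962037-74962673 was 636 bp wide and ran from 80 to 716 bp past the 3′ end, with its near edge 2324 bp from the start. It held no narrow region, nor did the narrow list have one within 10 kb of the gene.

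The near edges of the regions thus lay 570 to 3300 bp after the starts, and of the 7370 bp that these 4 regions covered, 2640 bp were gene body, all in CXCL8, and 4730 bp were downstream sequence. Gene models can differ at their ends. The RefSeq model of GRCh38.p14 was 6 bp longer than the hg19 span for CXCL1 (1916 against 1910 bp), and 88 bp shorter for CXCL2 (2156 against 2244 bp). It was also shorter for CXCL8 (3148 against 3210 bp) and CXCL5 (3036 against 3057 bp). The gaps of 79 and 80 bp past the 3′ ends of CXCL1 and CXCL2 rest on the hg19 spans. At which end the models differ was not examined. CXCL1, CXCL2 and CXCL3 are closely related copies, and how alike they are beyond the promoter was not measured. How reads that match several copies were treated is not said in the sources used here.

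**Figure D2:**
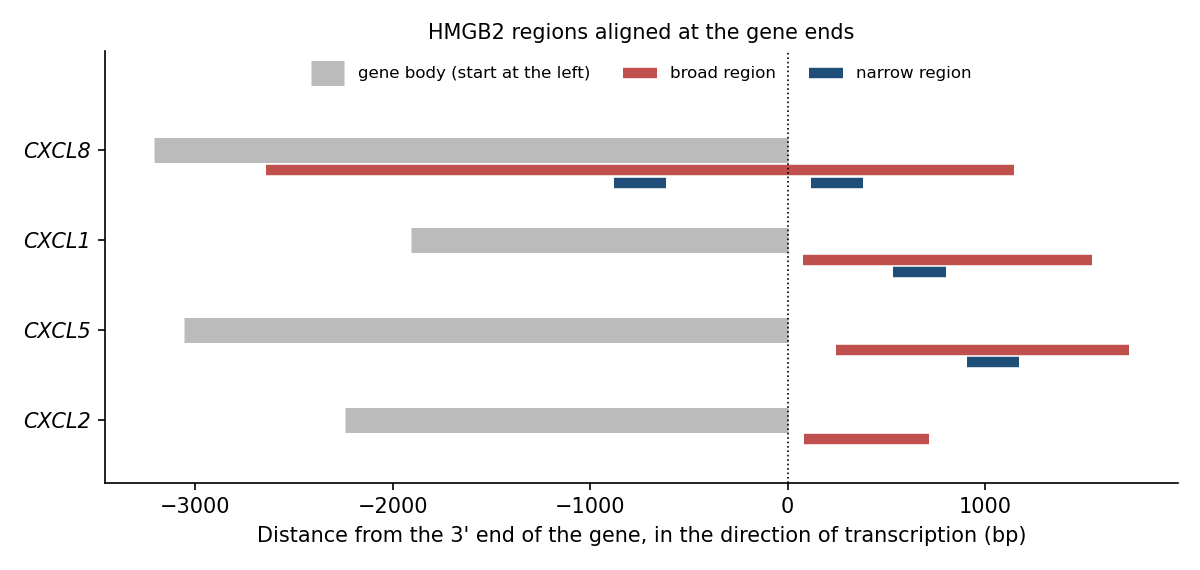
The 4 genes with hg19 positions aligned at the 3′ end: the x axis is the distance from that end in bp along the direction of transcription, grey bars are gene bodies, red bars broad regions and blue bars narrow regions. The region of CXCL8 begins 570 bp after the start and crosses the 3′ end, and those of CXCL1, CXCL5 and CXCL2 begin 79, 243 and 80 bp past it.

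The other 4 members, CXCL6, PF4, PPBP and CXCL3, were placed by gene order only. In the RefSeq order of GRCh38.p14, CXCL6, which encodes granulocyte chemotactic protein, and PF4V1, a variant copy of PF4, lie between CXCL8 and CXCL1. No broad region lay wholly inside these 125.7 kb, and the first 1148 bp held the tail of the region of CXCL8 and its second narrow region. PF4 and PPBP, both known for their products in platelets, lie between CXCL1 and CXCL5. That stretch of 124.3 kb held the 2 broad and 2 narrow regions described above, at its outer ends, and none between them for 121.1 kb. CXCL3, which encodes GRO-gamma, lies between CXCL5 and CXCL2, where the 98.3 kb held the region of CXCL2 and, for 97.6 kb up to it, nothing from either list. The regions of these stretches were described by the nearest placed gene. Their distances to these 4 genes were not measured, so a region could also lie near one of them.

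The fifth broad region lay apart from the chemokine genes. It was chr4:74526471-74526971, 500 bp wide, the smallest width in the broad list, and held the narrow region chr4:74526589-74526853, with the same midpoint. Its edge lay 79.3 kb upstream of the start of CXCL8. In the RefSeq order, the long noncoding RNA genes INKILN and UMLILO lie between RASSF6, a gene of the RAS association domain family, and CXCL8. UMLILO is known as a noncoding RNA that acts on the chemokine genes of this cluster in immune cells. Whether the region lies in either gene was not settled, because their hg19 positions were not used here.

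**Figure D3:**
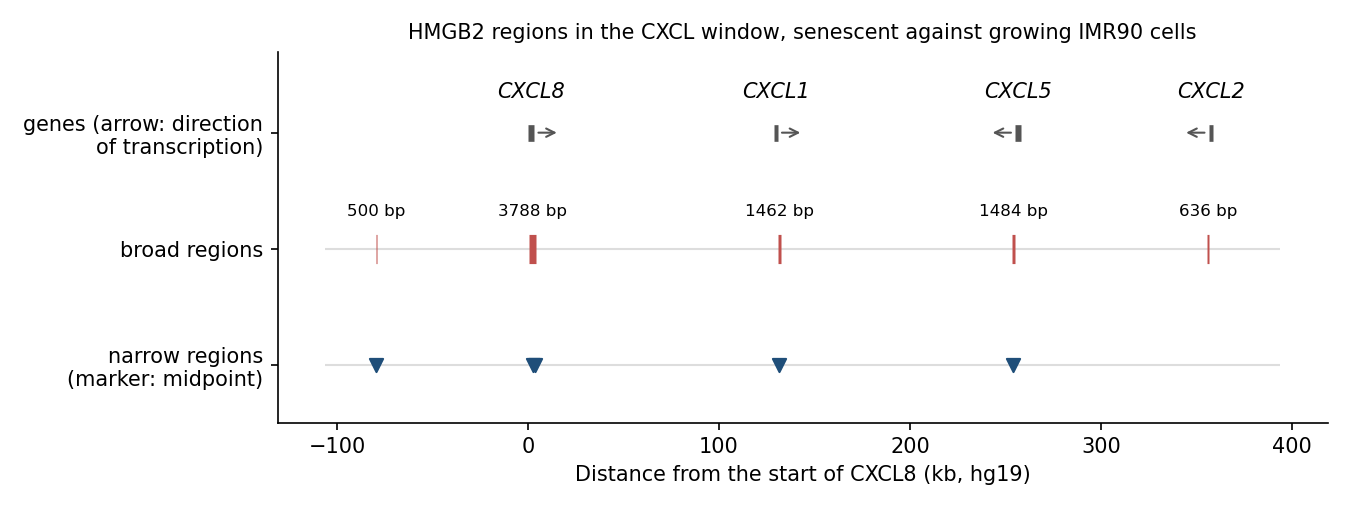
Map of the window: the x axis is the distance from the start of CXCL8 in kb, with the 4 placed genes at the top, the 5 broad regions drawn to scale with their widths, and the midpoints of the 5 narrow regions, of which the 2 at CXCL8 nearly coincide. Each placed gene has a broad region at its downstream side, and the region of 500 bp lies 79.3 kb upstream of CXCL8.

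From one broad region to the next, the gaps were 79.8, 126.5, 121.1 and 100.9 kb. Broad regions covered 7870 bp or 1.57% of the window. Over all chromosomes they covered 0.00758% of the sequence. Their density in the window was 10.0 per Mb (exact Poisson 95% interval 3.25 to 23.3), against 0.118 per Mb (0.106 to 0.130) over all chromosomes. Narrow regions were as dense in the window, at 10.0 per Mb with the same interval, against 0.902 (0.869 to 0.936) over all chromosomes. For both lists the intervals did not overlap, but this is no test of the window against the genome. The intervals cover counting error only, the window was proposed with results of these data known, and the rates over all chromosomes include it.

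Cut into fixed windows of 500 kb from the first base of each chromosome, the genome gave 6206 windows, of which 5.06% held a broad region, 0.58% one wider than 500 bp and 34.5% a narrow region. Of all these windows, the CXCL window had the greatest summed width of broad regions, 7870 bp. By number of broad regions it stood below one window, on chromosome 20 at 49.0 Mb, which held 7 with a summed width of 4112 bp. Its 4 regions wider than 500 bp were matched by 1 other window, that of the matrix metalloproteinase genes in 11q22.2, and exceeded by none. These 4 regions had a summed width of 7370 bp, against 7332 bp in that other window. The ranks were not repeated with shifted windows. Its 5 narrow regions were exceeded by 1 window and matched by 2 others. These are descriptions of the lists and not tests.

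**Figure D4:**
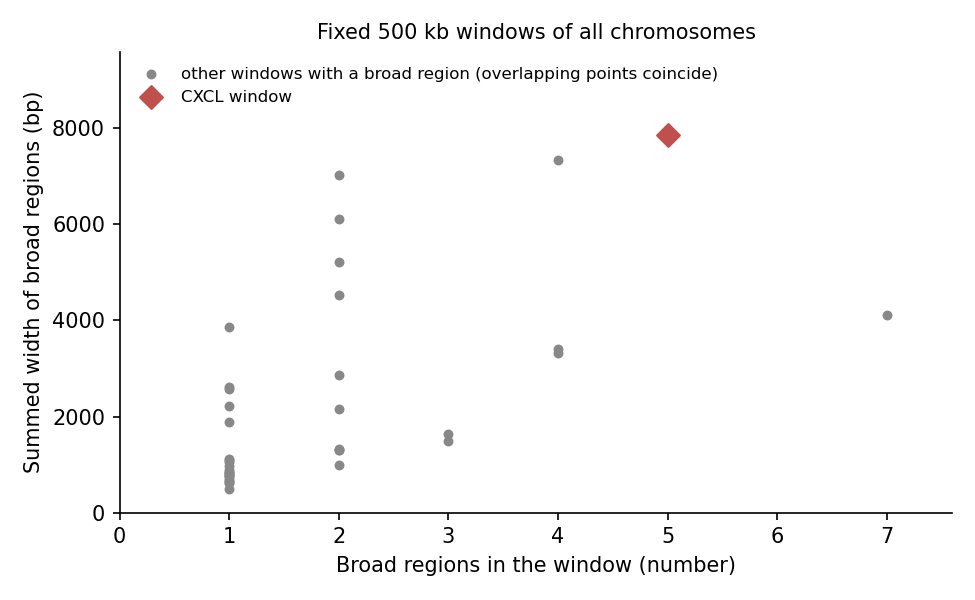
Each point is one of the fixed 500 kb windows that hold a broad region, by number of broad regions (x axis) and their summed width in bp (y axis). The CXCL window, with 5 regions and 7870 bp, lies above all others in width, and 1 window holds more regions.

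The windows most like it differed in layout. In the window of the matrix metalloproteinase genes, 4 broad regions with a summed width of 7332 bp lay within 48.3 kb. In the CXCL window, the 4 regions wider than 500 bp spread over 355.9 kb. A window on chromosome 2, which held the widest region of the list (6140 bp), reached 7022 bp with 2 broad regions within 7.82 kb. These differences were not tested.

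Narrow and broad calls fell together in the cluster. All 5 narrow regions of the window lay inside a broad region, but the share of all narrow regions that did was not counted. Of the 5 broad regions, 4 held at least 1 narrow region (80.0%, exact binomial 95% interval 28.4 to 99.5). Over the whole broad list, 100 of 364 did (27.5%). Among the regions wider than 500 bp it was 3 of 4 in the window and 21 of 53 in the list (39.6%). Broad regions wider than 500 bp made up 4 of 5 in the window (80.0%, 28.4 to 99.5) and 14.6% of the list. They made up 4 of 4 in the matrix metalloproteinase window and 2 of 2 in the chromosome 2 window. In those 2 windows, 2 of 4 and 1 of 2 broad regions held a narrow region. Both lists were made from the same libraries, so their overlap is no independent agreement.

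The regions of the cluster stood early in both lists. In the broad list, that of CXCL8 was at place 3, those of CXCL1 and CXCL5 at places 17 and 18, that of CXCL2 at place 56 and the upstream region at place 59 of 364. By width they ranked 3 for CXCL8, 17 for CXCL5, 18 for CXCL1 and 49 for CXCL2, while the upstream region shares the smallest width with most of the list. In the narrow list, the 2 regions of CXCL8 were at places 4 (beyond the 3′ end) and 6 (inside the gene), that of CXCL1 at 11, that of CXCL5 at 16 and the upstream one at 24 of 2792. The first 24 narrow regions lay in 19 of the fixed windows. The CXCL window held 5 of them, and no other window held more than 2. Early places were also found in the windows most like it. The broad regions of the matrix metalloproteinase window were at places 7, 14, 16 and 29, ahead of CXCL2 and the upstream region. Its earliest narrow regions were at places 5 and 17, and its last stood far later in that list. In the chromosome 2 window, the broad regions were at places 2 and 25 and the narrow region at place 3. The order of the genes, CXCL8 before CXCL1 before CXCL5, was the same in both lists. The sources used here do not say what the order stands for.

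**Figure D5:**
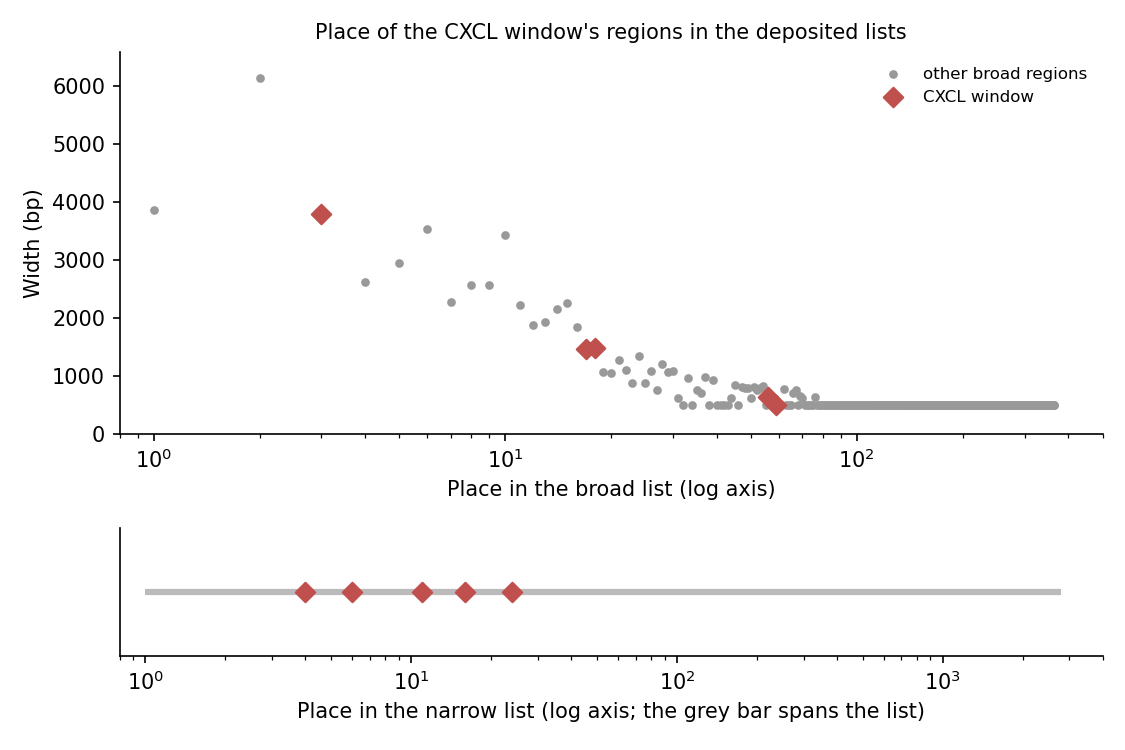
Upper panel: width in bp of every broad region against its place in the deposited list (log axis), with the 5 of the CXCL window as diamonds at places 3, 17, 18, 56 and 59. Lower panel: the 5 narrow regions of the window by place (log axis), all among the first 24 of 2792.

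Receptors, other CXC ligands and regulators of the cluster could be placed only by chromosome band, a stretch of several megabases, so a region in the band need not lie at the gene. The 18 genes of this list lie in 14 bands, of which 5 held a broad region (35.7%) and 1 held one wider than 500 bp (7.14%). Of all 862 bands, 29.6% and 3.94% did, so these counts lie near the background. CXCR1 and CXCR2, the receptors for the neutrophil-attracting members, lie in 2q35, and ACKR1, a scavenging receptor, in 1q23.2, and neither band held a broad region. Among the 4 receptors, only the band of CXCR3, Xq13.1, held one, of 500 bp. The interferon-induced ligands CXCL9, CXCL10 and CXCL11 and the B cell attractant CXCL13 share 4q21.1, the band next to the cluster, which held 1 broad region of 500 bp. CXCL14 in 5q31.1 also had 1 of 500 bp, and the bands of CXCL12 and CXCL16 had none. Among 7 regulators, the bands of RELA, a subunit of NF-kB (4 broad regions, all of 500 bp), and CEBPB, a transcription factor of SASP genes (8, of which 3 were wider), held broad regions. Those of NFKB1, NFKBIZ, NFKBIA, TNFAIP3 and ZFP36 held no broad region. All 14 bands held at least 1 narrow region. The share of all bands that did was not counted, so this count cannot be read as a trait of these genes. The bands of CXCR3 and TNFAIP3 differ in length between the builds by more than 100 kb, so their pairing is uncertain.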

How the data were processed

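The authors deposited 2 lists of regions that, per the file headers, give each region as base positions in hg19, beside an identifier and without score or read count. Bowtie 0.12.9 and HOMER 1.0 are named in the submitters' processing notes, with no role. The sources used here do not state calling settings or an input control. Whether starts count from 0 or 1 is not stated, so a start could differ by 1 bp. Width was end minus start, and overlap was at least 1 bp, checked with bedtools 2.31.1.

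Gene spans in hg19 came with the definition of the window and strands from the RefSeq promoter table. Gene order, names and band positions came from RefSeq GRCh38.p14, and no coordinates were converted. Bands and chromosome lengths came from circlize 0.4.16 and GenomeInfoDb 1.38.1. The rule for named genes was all 8 members, their neighbours and a pathway list. Members and lists were chosen with earlier results of these data known. Counting was tested on simulated data. Python 3.11.15, pandas 2.3.3 and scipy 1.17.1 were used.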

Additional observations from a re-analysis of the deposited data

How the results depend on the processing

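Of 44 values under other settings, 40 lay within 1.5 times of the value reported, including those with the window widened by 100 kb, regions within 1 kb merged, and only the first 50% of each list. Several of these settings could hardly move a value. The smallest gap between broad regions of the window was 79.8 kb, and the nearest broad region outside lay 3.60 Mb away. All regions of the window stood at or before place 59 of 364 or 24 of 2792. The other 4 of the 44 values moved by over 1.5 times. With overlap of the gene body in place of 5 kb, 1 of the 4 placed genes, CXCL8, had a broad region and 1 a narrow region. With 5 kb or 1 kb the counts were 4 and 3, so they depend on counting sequence beside the gene. The share of fixed windows with a broad region moves with window size by construction, and was 1.08% with windows of 100 kb and 9.77% with windows of 1 Mb. Identity between the proteins was planned and not run, since protein sequences were not used here. No paired analysis was possible because each condition has 1 library and the lists hold no values per sample. As depth is unknown, a missing region cannot be read as missing binding.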

Other observations

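Outside the window, broad regions were far away. The nearest on the left, at chr4:29544383-29544883, was 45.0 Mb from the window, and the nearest on the right, at chr4:78602843-78603343, was 3.60 Mb away. Both were 500 bp wide and stood at places 330 and 227 of the list. All 5 broad regions of band 4q13.3 (5.8 Mb long in hg19) thus lay in the window, out of 19 on the chromosome, whereas 9 of the band's 14 narrow regions lay outside it. Beyond CXCL2 the next 2 narrow regions were at chr4:75066883-75067147 and chr4:75082731-75082995, which is 101.9 and 117.7 kb past its outer end, at places 401 and 1995. In the RefSeq order of GRCh38.p14 the genes that follow CXCL2 are MTHFD2L, a mitochondrial enzyme of folate metabolism, and the epidermal growth factor receptor ligands EPGN, EREG, AREG and BTC. Neither of these 2 narrow regions lay in a broad region.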
